A study of Mus musculus with 18 samples.

Results

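The comparison described here is the average effect of 1 exposure to ultraviolet B (UVB) on the transcriptome of mouse epidermis, taken over 3 genotypes. All 18 libraries of the series entered it, 10 from irradiated and 8 from unirradiated skin. They were chosen by their labels, and the model held genotype and library kind (below) as additive terms. Besides wild type (WT) mice there were OPN-null mice (labelled OPN KO), which lack osteopontin, and K14-OPN mice, a genotype that carries osteopontin under the keratin 14 promoter of basal keratinocytes on the OPN-null background. WT gave 2 libraries without UVB and 3 after it, OPN-null 3 and 4, and K14-OPN 3 and 3. Mice of all groups were males aged 10 weeks. Per the labels' protocols, backs were shaved 48 h ahead of a dose of 180 mJ per cm2, and skin was taken 24 h after the dose. The protocols do not state separately whether unirradiated mice were shaved at the same time. RNA came from epidermis scraped off with a blade. The labels do not say whether a library is 1 animal, several animals or a repeat of another library's RNA, so every p-value here is set against the spread between libraries only.

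UVB is absorbed by DNA and leaves photoproducts that stall polymerases. Keratinocytes with such damage stabilise the transcription factor p53, which switches on genes of cell cycle arrest, repair and apoptosis, while stress kinases and shed ligands of the epidermal growth factor receptor (EGFR) switch on AP-1 target genes. In the following days the epidermis thickens, takes on wound keratins and sheds damaged cells.

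The labels leave unnamed a split of the libraries into 2 kinds. Counts of Rn7sk, a small nuclear RNA, exceeded those of Lars2 in 6 libraries (1 per group, called 7SK-rich) and were below them in the other 12 (Lars2-rich). Reads counted to genes were 3696865 to 26068614 per library, and 12874 to 25483 genes had a count. In the Lars2-rich libraries the 10 most abundant genes took 37.49 to 84.26% of the counts without UVB and 12.43 to 37.13% after it; in the 7SK-rich libraries these shares were 27.43 to 38.25% and 28.02 to 32.26%. A set of 3 unirradiated Lars2-rich libraries stood apart. WT 10 and K14-OPN 11 had summed hair shaft keratin and keratin-associated transcripts of 147000 and 166000 CPM (the count scaled to the library's TMM-adjusted size), against 155 to 974 in the other 6 unirradiated libraries, and OPN-null 9 had the share of 84.26%. Without these 3, the unirradiated Lars2-rich libraries left are OPN-null 8 and K14-OPN 1, and the unirradiated WT library left is WT 11. K14-OPN 1 was itself unusual in markers of infiltrating cells (below), so fits without the 3 lean on it more. The tissue label was checked against 10 keratinocyte markers (Krt5, Krt14, Krt1, Krt10 and others). All were present in every library and summed to 8660 to 41800 CPM.

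Spp1, which encodes osteopontin, was examined first as the targeted gene (GRCm38 chromosome 5, 104435118 to 104441050, plus strand). Unirradiated OPN-null libraries had 0, 2.64 and 3.66 CPM, and irradiated ones 1.76, 1.81, 2.71 and 7.57 CPM. Unirradiated K14-OPN libraries had 34.5, 58.7 and 70.4 CPM, and irradiated ones 327, 347 and 758 CPM. In WT the values were 2.53 and 45.2 CPM without UVB and 13.2, 272 and 385 CPM after it. The transgene's transcript thus lay above every OPN-null library in all 6 K14-OPN libraries. The average UVB effect on Spp1 was a log2 fold change of 2.24 ± 0.738 (SE; adjusted p = 0.0259, edgeR quasi-likelihood test with Benjamini-Hochberg adjustment), with fitted values of 3.25 in WT, 0.15 in OPN-null and 3.18 in K14-OPN. Irradiated and unirradiated libraries overlapped. The test of a difference between genotypes did not pass for Spp1 (adjusted p = 0.958), and the call of the average was lost without the 3 libraries that stood apart (log2 fold change 2.06, adjusted p = 0.111), and without K14-OPN irradiated library 1 (1.63, adjusted p = 0.131).

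Transcripts of a large share of genes differed between irradiated and unirradiated libraries. Of 18910 genes tested, 2984 (15.8%) rose and 3283 (17.4%) fell at an adjusted p below 0.05, 33.1% in all, and these percentages are the background for every list below. The lists and their members were chosen with earlier results of these data known. Their counts are therefore in part a result of that choice and only a description. A log2 fold change of 1 or more in size was reached by 1872 of those that rose (9.9% of genes tested) and 2614 of those that fell (13.8%). A log2 fold change of at least 3 in size was reached by 354 and 762. The median over all genes tested was -0.05. Calls were more frequent among abundant genes, with 19.8% of the lowest quartile of mean level called and 49.9% of the highest. In the highest quartile 1488 genes rose and 869 fell. Protein-coding genes rose in 19% and fell in 18.7% of cases, whereas antisense genes rose in 4.61% and fell in 13.7%. No source used here says whether counting used strand, and reads of a gene and its antisense partner cannot be told apart.

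The 12 highest and 12 lowest fold changes are given for called genes with a mean log2 CPM of 1 or more and no overlap of conditions within either library kind. That separation is part of the choice and no finding, and genes outside it, such as Sprr3 (log2 fold change 5.21), can exceed those named. Lgi2, a secreted leucine-rich protein of the LGI family, had 0 counts in 6 of 8 unirradiated libraries and at most 1.82 CPM in the others. In irradiated libraries it was at 18.4 CPM at the lowest, 33.2 at the median and 60.4 at the highest. Irradiated and unirradiated libraries did not overlap, and the average log2 fold change was 7.84 ± 0.643. Il24, an IL-20 family cytokine that signals to keratinocytes, had a median of 0.0602 CPM (0 to 10.7) without UVB and of 83.2 CPM (46.6 to 129) after it, again without overlap (log2 fold change 6.22 ± 0.749, adjusted p = 9.21e-06). Epgn encodes epigen, an EGFR ligand. Its level was 7.22 CPM (3.96 to 34.7) in unirradiated and 310 CPM (186 to 551) in irradiated libraries, a 31.8-fold increase with no overlap. Thrombomodulin (Thbd), the surface receptor through which thrombin activates protein C, went from 3.95 CPM (0 to 25.7) to 113 CPM (71.3 to 144), and these ranges did not overlap either. The other genes among the 12 highest were Krt6b, Krt6a and Eda2r (described below), the clade B serpin Serpinb6c (28.4-fold), the SH2-domain adaptor Sh2d5 (28.1-fold), the matricellular protein Tinagl1 (26.1-fold), the beta-defensin Defb3 (25.6-fold) and the membrane serine protease Tmprss11b (24.4-fold). Of these 12 genes, Serpinb6c overlapped between conditions over all libraries.

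Among the 12 lowest, Mt4, the metallothionein of stratified epithelia, had a median of 98.6 CPM (23.8 to 1380) without UVB and of 1.52 CPM (0.049 to 8.5) after it. The conditions did not overlap, and the fall was 107-fold (log2 fold change -6.75 ± 0.669, adjusted p = 1.47e-06). Skint7 belongs to the Skint family, whose founder Skint1 selects dendritic epidermal T cells. It was at 24.2 CPM (6.72 to 40.9) without and 0.701 CPM (0.176 to 3.48) with UVB. Nuak1, an AMPK-related kinase, fell from 70.6 CPM (38.4 to 99.7) to 4 CPM (0.954 to 8.65). Neither gene overlapped between conditions. Further falls of 16.4-fold to 26.2-fold were found for the formin Fhod3, the procollagen peptidase Adamts14, the glutamine transporter Slc38a3, the phospholipase Plb1, the secreted carbonic anhydrase Car6, Nckap5, Psors1c2 and the WNT inhibitor Nkd2. Krtap3-2, a hair shaft protein, fell 43.1-fold. Krtap3-2, Fhod3 and Psors1c2 overlapped between conditions over all libraries, and their falls were larger in the Lars2-rich libraries, which include the 3 that stood apart, than in the 7SK-rich ones. The log2 fold changes were -6.03 and -1.12 for Fhod3, -5.84 and -0.99 for Psors1c2 and -6.78 and -2.87 for Krtap3-2, and likewise -5.06 and -2.18 for Nckap5 and -5.54 and -2.84 for Slc38a3. For Mt4 they were -6.74 and -6.01, and for Skint7 -4.41 and -4.76. One unirradiated library had 6520 CPM of Psors1c2 against a median of 44.6 CPM, and the OPN-null value was -0.66 against -6.92 in WT and -6 in K14-OPN on the log2 scale.

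**Figure D1:**
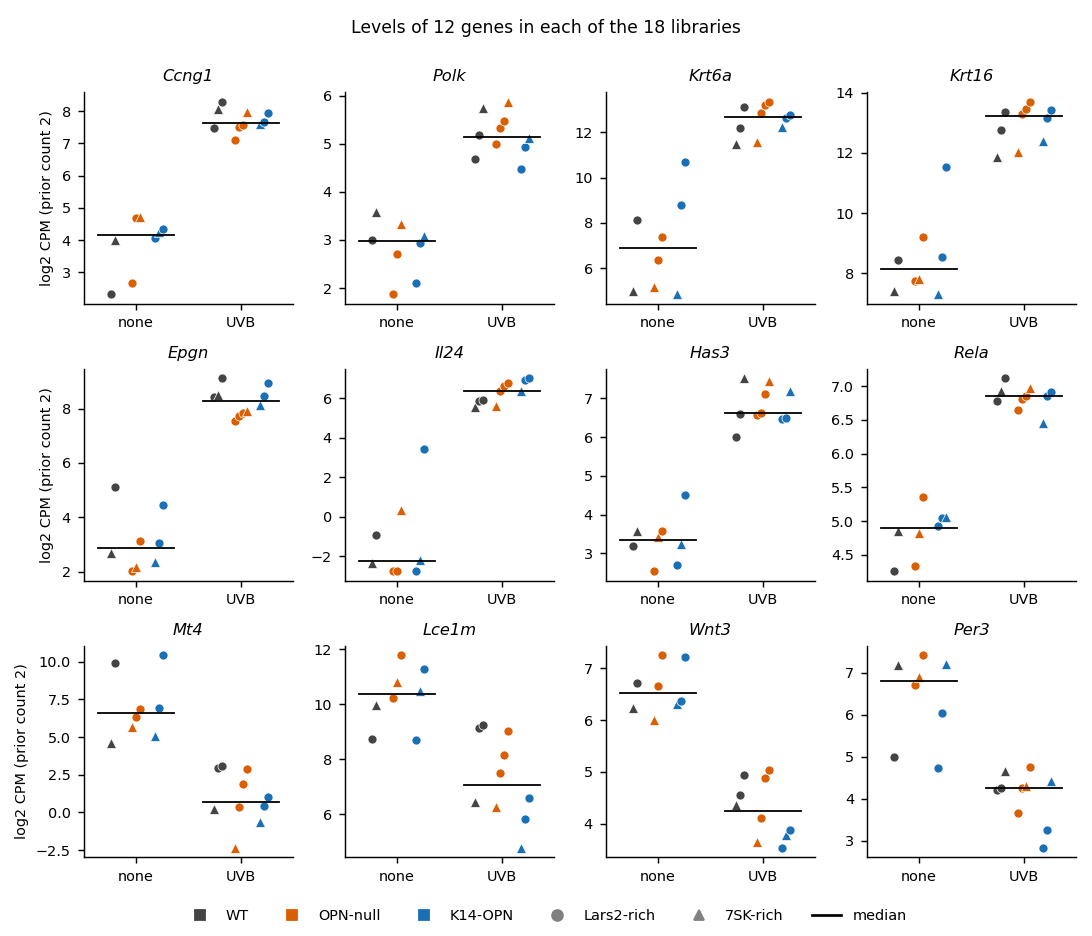
Level of 12 genes in each library (vertical axis, log2 CPM with a prior count of 2), without and with UVB (horizontal axis). Colours mark genotypes, circles Lars2-rich and triangles 7SK-rich libraries, and the line is the median of a condition. Every irradiated library lies above every unirradiated one for Ccng1, Polk, Krt6a, Krt16, Epgn, Il24, Has3 and Rela, and below for Mt4 and Wnt3, while Lce1m and Per3 overlap.

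The 6 genes with the smallest p in each direction, taken under the same conditions on level and overlap, were Epgn (above), Ptp4a3, St3gal2, S100a11, Ier5l and Igsf8 among those that rose and Tnik, Adgra3, Apcdd1, Plekha5, Fam189a2 and Mycl among those that fell. Ptp4a3, a phosphatase of the PRL group, was at 5.64 CPM (3.23 to 7.46) without and 48.6 CPM (32.3 to 77.4) with UVB, a log2 fold change of 3.25 ± 0.22 (adjusted p = 4.58e-08). Its fitted values were 3.15 in WT, 3.31 in OPN-null and 3.26 in K14-OPN. St3gal2, which adds sialic acid to glycolipids and glycoproteins, changed by 2.44, 2.55 and 2.57 in the same order. The calcium-binding protein S100a11 rose 5.9-fold, the immediate early gene Ier5l 8.23-fold and the membrane protein Igsf8 3.86-fold. S100a11 was the one of these with overlap over all libraries (4.94 to 97.9 CPM without and 26.3 to 477 CPM with UVB). In the other direction, the kinase Tnik fell from 48.8 CPM (28.6 to 112) to 7.04 CPM (4.48 to 25.5), and the adhesion receptor Adgra3 from 114 CPM (45.7 to 252) to 14.6 CPM (5.32 to 35.3). Apcdd1, Plekha5, Fam189a2 and the MYC family gene Mycl fell 11.7-fold, 5.66-fold, 5.86-fold and 7.53-fold, each without overlap over all libraries.

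Targets of p53 mostly rose. Of 29 tested members of this list, 22 rose and 2 fell, and their median log2 fold change was 1.55 against -0.05 for all genes. Ccng1, the p53-induced cyclin G1, was at 17.8 CPM (4.85 to 25.9) without UVB and 198 CPM (136 to 315) after it, with no overlap. Plk2, a polo-like kinase, went from 56.5 CPM (27.7 to 85.8) to 287 CPM (222 to 380). Tnfrsf10b encodes the TRAIL death receptor and was at 3.35 CPM (0.712 to 5.72) and 37.2 CPM (23.1 to 77.6). Neither overlapped. Eda2r, a receptor of ectodysplasin A2, was at 0 to 1.09 CPM in unirradiated and 8.5 to 27.8 CPM in irradiated libraries. Several members were named after their values were seen, as were all list members below that fall outside the 4 smallest p of their list. Cdkn1a, the arrest gene p21, rose from 221 CPM (135 to 386) to 1040 CPM (845 to 1290), and Mdm2, the ligase that degrades p53, from 48.2 CPM (34.9 to 97.2) to 152 CPM (119 to 197). The pro-apoptotic gene Bax changed from 10.3 CPM (5.37 to 19) to 40.6 CPM (21 to 63.9). All 3 separated the conditions in full. The share of all genes tested that did so is not given, so here and in the lists below separation is only a description. The 2 members that fell were Sesn1, at a log2 fold change of -1.84, and the damage sensor gene Xpc, at -0.94. For the pro-apoptotic Bbc3 and the death receptor Fas the values were 0.14 and 0.34 and did not pass the test. Trp53 itself had a log2 fold change of 0.68 ± 0.19 (adjusted p = 0.00999).

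Of 27 genes of nucleotide excision repair and translesion synthesis, 8 rose (29.6%) and 2 fell (7.41%), with a median of 0.09. Polk, a translesion polymerase that is also a p53 target, rose from 7.69 CPM (3.52 to 11.8) to 35.3 CPM (22.1 to 58.8). Ercc1, part of the nuclease that cuts 5' of the lesion, rose from 10.5 CPM (4.4 to 15.7) to 43 CPM (26.2 to 60.8). Both separated the conditions. Gtf2h1 of the repair helicase complex TFIIH and the sliding clamp Pcna rose by 0.93 and 1.29 on the log2 scale. Besides Xpc, Rev3l, the catalytic subunit of polymerase zeta, fell (-1.2).

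AP-1 and immediate early genes rose in 11 of 14 tested members and fell in none, with a median of 1.15. Fosl1, the FOS family member linked to wounds and squamous tumours, had a median of 0.13 CPM (0 to 1.34) without and 8.52 CPM (0.527 to 22) with UVB, and its conditions overlapped. The log2 fold change was 4.84 ± 0.714. Ier5 rose from 92.5 CPM (52.7 to 217) to 248 CPM (202 to 328) and Fosb from 16.3 CPM (1.87 to 33.4) to 45.9 CPM (28.9 to 63.8), both with overlap. Jun, Junb, Fos and Atf3 rose by 0.87, 0.91, 1.39 and 1.96 on the log2 scale. Fosl2 and Myc did not pass, at -0.04 and 0.32.

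Genes of the EGFR family moved in both directions, and most did not pass. The ligands Epgn (above), Areg and Hbegf rose, while the ligand Btc, the receptors Erbb2 and Erbb3 and the receptor inhibitor Lrig3 fell, so that 3 of 15 rose (20%) and 4 fell (26.7%), near the shares over all genes. Areg, amphiregulin, was at 18.9 CPM (5.91 to 57.1) without and 133 CPM (48.1 to 288) with UVB, with overlap. Betacellulin (Btc) was at 68.6 CPM (8.76 to 174) and 6.01 CPM (2.45 to 12.3), also with overlap. Lrig3 fell from 34.3 CPM (18.2 to 102) to 9.77 CPM (3 to 20.1). The log2 fold changes were 2.8 ± 0.275 for Areg, -3.28 ± 0.487 for Btc and -2 ± 0.237 for Lrig3. Egfr itself was at 0.28 and did not pass. The sign of this list's median depended on the setting (0.22 in the average effect, 0.15 with RLE scaling, -0.14 with voom, -0.25 without the 3 libraries that stood apart). Feedback inhibitors of the same pathway were also split: 4 of 16 MAP kinase phosphatases, Sprouty and Spred genes rose and 4 fell. Dusp6, the ERK phosphatase, rose from 16.2 CPM (10.7 to 70.7) to 113 CPM (72.1 to 133) without overlap, Spred3 rose by 2.82 and Dusp7 by 1.64 on the log2 scale, and Spry1 fell by 1.82.

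Keratinocyte genes of wounding and hyperproliferation rose almost throughout, with 30 of 33 tested members up, none down and a median log2 fold change of 3.08. Krt6a, a keratin that interfollicular epidermis makes after injury, was at 124 CPM (28.8 to 1650) without UVB and 6610 CPM (2900 to 10500) after it. Its near-identical neighbour Krt6b was at 38.2 CPM (6.78 to 1840) and 6340 CPM (2680 to 8490), and their partner Krt16 at 288 CPM (159 to 2990) and 9580 CPM (3740 to 13400). None of the 3 keratins overlapped between conditions. The highest unirradiated value of each came from K14-OPN library 1, and reads of Krt6a and Krt6b may be split between them in a way that the sources do not state. The log2 fold changes were 5.23 ± 0.615, 5.57 ± 0.844 and 4.09 ± 0.486. The antileukoprotease Slpi rose from 12.2 CPM (3.47 to 583) to 572 CPM (104 to 978), with overlap. Plaur, Ecm1 and Il1f6 did not pass, at 1.48, -0.67 and 0.34.

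Basal keratinocyte genes also rose, in 13 of 18 tested members with a median of 1.01. Integrin beta 1 (Itgb1) went from 49.9 CPM (35.2 to 124) to 228 CPM (167 to 428), integrin alpha 3 (Itga3) from 48 CPM (9.18 to 60.2) to 183 CPM (103 to 310) and the hemidesmosomal integrin beta 4 (Itgb4) from 143 CPM (34.5 to 198) to 415 CPM (270 to 947). All 3 separated irradiated from unirradiated libraries. Krt14, the basal keratin whose promoter drives the transgene, rose from 1200 CPM (901 to 6610) to 12200 CPM (3720 to 20300), a log2 fold change of 2.57 ± 0.376 with overlap. The laminin genes Lamb3 and Lama3 rose by 1.34 and 1.03. One member fell: Krt15, a keratin of resting basal and hair bulge cells, went from 393 CPM (223 to 1320) to 84.5 CPM (18.9 to 240), a log2 fold change of -2.69 ± 0.381 with overlap. Col17a1 (0.44) and Plec (-0.15) did not pass. Receptors of osteopontin shared part of this pattern, with Itgb1, Cd44, Itga5 and Itgb6 up and Itgb5 down among 10 receptor genes tested. Cd44 was at 151 CPM (92.6 to 1060) without and 597 CPM (359 to 969) with UVB, a log2 fold change of 1.45 ± 0.356.

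Differentiation genes moved in both directions. Of 21 spinous and suprabasal genes 6 rose and 4 fell (median 0.18), and the major suprabasal keratins Krt1 and Krt10 did not pass, at 0.27 and -0.22. Desmoglein 1b (Dsg1b) rose from 37 CPM (11.4 to 189) to 125 CPM (93.1 to 573), and Krt2 fell from 4.49 CPM (2.42 to 9.97) to 1.07 CPM (0.383 to 3.48), both with overlap. Of 26 genes of the cornified envelope and barrier, 18 fell and 3 rose (median -1.3). Lce1m, a late envelope protein, fell from 1310 CPM (415 to 3510) to 139 CPM (27.5 to 606), and Lce1l from 264 CPM (46.7 to 401) to 43.8 CPM (10.1 to 96). Both overlapped between conditions. Repetin (Rptn) rose from 18.9 CPM (3.52 to 195) to 148 CPM (60.3 to 395), and Cnfn and Tgm5 rose by 1.07 and 1.18. Filaggrin (Flg), Flg2 and loricrin (Lor) fell by 1.06, 1.95 and 1.73 on the log2 scale. This list depended on the libraries used: 5 members fell and 1 rose in the Lars2-rich libraries (median -1), and 20 fell and 2 rose in the 7SK-rich libraries (median -2.32). With the mean of dermal fibroblast markers as a covariate 2 fell and 3 rose (median -0.49). Those markers moved with UVB themselves (below), and their part in the result was not tested beyond that fit.

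The envelope genes that rose and those that fell lie side by side in the epidermal differentiation complex, a cluster on chromosome 3 whose genes are read in sequence as keratinocytes mature. In the window from 92000001 to 93000000 (GRCm38), 45 protein-coding genes were tested, of which 21 rose and 19 fell, against 19% and 18.7% of all protein-coding genes. Small proline-rich (Sprr) genes rose in 12 of 13 cases (median 3.38), Lce3 genes in 6 of 6 (median 2.63), and Lce1 genes fell in 12 of 13 (median -1.99). The direction of each family's median was the same in the Lars2-rich libraries (3.16, 2.35 and -1.18), in the 7SK-rich libraries (3.79, 3.37 and -3.36), in WT (2.93, 2.45 and -0.75), in OPN-null (4.36, 4.08 and -2.26) and in K14-OPN (2.65, 1.46 and -2.33). Members of a family resemble each other, and reads may be shared or lost between them, so they are not separate observations. Sprr1b, a cross-linked envelope precursor, was at 112 CPM (10.5 to 989) without and 2460 CPM (238 to 3750) with UVB, and Sprr2f at 4.94 CPM (1.14 to 74.3) and 134 CPM (30.8 to 230). Sprr2h rose from 87.6 CPM (13.4 to 421) to 808 CPM (167 to 1770). These ranges overlapped over all libraries, but for none of the 3 genes within either kind. Involucrin (Ivl), an early envelope scaffold, was at 396 CPM (114 to 940) and 239 CPM (95.8 to 368), a log2 fold change of -1.14 ± 0.244. Loricrin (Lor), the bulk protein of the envelope, had a median of 1300 CPM (857 to 8850) without and 1620 CPM (127 to 3920) with UVB. The medians over all libraries thus lie in the opposite order to the fitted effect of -1.73 ± 0.492, which takes library kind and genotype into account and was -1.12 in the Lars2-rich and -2.71 in the 7SK-rich libraries.

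**Figure D2:**
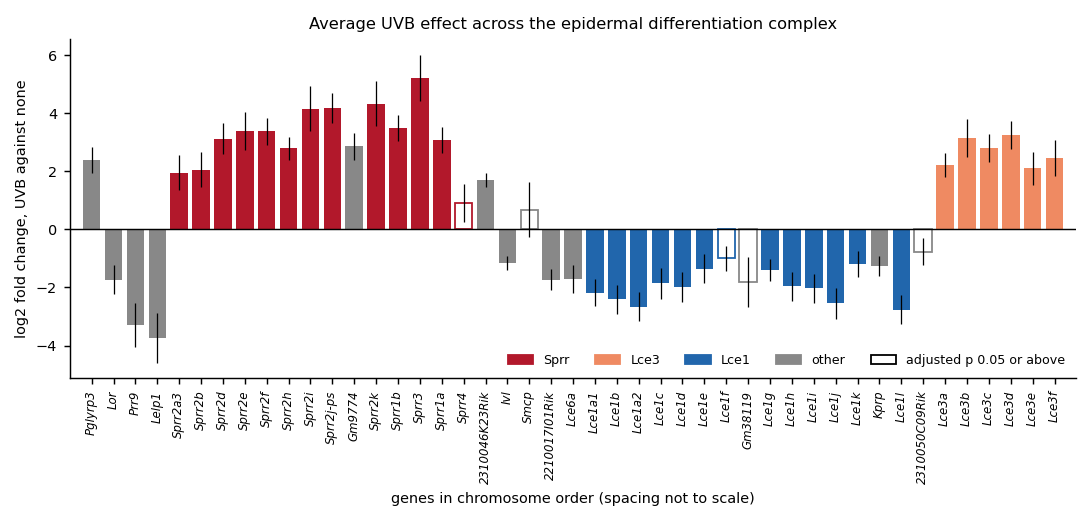
Average UVB effect (vertical axis, log2 fold change; error bars, SE) of the 45 protein-coding genes tested in the 1 Mb window of the epidermal differentiation complex, in chromosome order (horizontal axis, spacing not to scale). Colours mark gene families and open bars genes that did not pass. The Sprr block (0.91 to 5.21) and the Lce3 block (2.1 to 3.26) point up and the Lce1 block between them (-2.76 to -0.99) points down.

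The promoters shown are from genes of this cluster that rose and from genes that fell, chosen because each holds both motifs below. That both occur in every promoter shown is part of the choice and no finding. Sequences are from RefSeq (GRCm38.p6) and run 5' to 3' on the gene's strand from 250 bases before to 50 bases after the start. Capitals mark the AP-1 site (TGACTCA or TGAGTCA) and the TATA box (TATAAA), each searched on both strands, and the lines name Sprr2d (chr3:92338890-92339189, plus strand), Sprr2h (chr3:92385435-92385734, plus), Sprr2k (chr3:92432332-92432631, plus), Sprr1a (chr3:92485832-92486131, minus), Lor (chr3:92083093-92083392, minus) and Ivl (chr3:92573686-92573985, minus).
Sprr2d: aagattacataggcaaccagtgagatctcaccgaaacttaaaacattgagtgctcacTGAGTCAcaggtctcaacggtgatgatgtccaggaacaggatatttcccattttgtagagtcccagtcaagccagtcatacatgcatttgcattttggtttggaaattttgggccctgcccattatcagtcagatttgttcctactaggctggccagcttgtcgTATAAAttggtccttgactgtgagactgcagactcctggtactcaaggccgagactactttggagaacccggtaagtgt
Sprr2h: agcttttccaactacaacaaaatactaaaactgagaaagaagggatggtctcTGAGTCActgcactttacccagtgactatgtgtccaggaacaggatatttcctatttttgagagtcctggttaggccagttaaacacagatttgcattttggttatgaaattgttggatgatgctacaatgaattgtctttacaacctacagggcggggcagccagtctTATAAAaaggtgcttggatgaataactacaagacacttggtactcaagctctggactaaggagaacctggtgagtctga
Sprr2k: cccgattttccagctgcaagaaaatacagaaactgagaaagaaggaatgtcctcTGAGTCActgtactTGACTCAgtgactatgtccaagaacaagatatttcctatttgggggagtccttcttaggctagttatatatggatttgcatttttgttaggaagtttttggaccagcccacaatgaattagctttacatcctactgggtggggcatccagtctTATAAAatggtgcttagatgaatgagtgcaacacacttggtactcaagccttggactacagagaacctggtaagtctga
Sprr1a: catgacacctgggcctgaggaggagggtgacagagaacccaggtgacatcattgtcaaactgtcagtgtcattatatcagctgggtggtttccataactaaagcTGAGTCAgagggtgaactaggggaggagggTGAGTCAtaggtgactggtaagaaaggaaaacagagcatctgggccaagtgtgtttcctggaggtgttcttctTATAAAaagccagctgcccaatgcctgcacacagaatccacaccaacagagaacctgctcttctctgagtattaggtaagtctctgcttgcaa
Lor: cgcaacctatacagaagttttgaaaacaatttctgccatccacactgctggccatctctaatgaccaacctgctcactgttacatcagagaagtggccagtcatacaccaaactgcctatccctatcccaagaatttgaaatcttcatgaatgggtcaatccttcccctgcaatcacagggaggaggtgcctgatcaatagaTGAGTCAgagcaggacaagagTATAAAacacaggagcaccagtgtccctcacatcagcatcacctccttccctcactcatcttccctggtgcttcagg
Ivl: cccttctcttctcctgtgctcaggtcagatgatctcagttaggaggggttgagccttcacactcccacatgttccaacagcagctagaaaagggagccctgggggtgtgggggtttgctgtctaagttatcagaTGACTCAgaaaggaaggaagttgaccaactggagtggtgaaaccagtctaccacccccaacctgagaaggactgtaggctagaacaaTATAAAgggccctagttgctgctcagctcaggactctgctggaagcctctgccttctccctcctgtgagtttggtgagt
The first 4 genes rose and the last 2 fell. The AP-1 match began 193 bases before the start in Sprr2d, 198 in Sprr2h, 196 and 182 in Sprr2k, 146 and 116 in Sprr1a, 48 in Lor and 116 in Ivl. The TATA match began 27 to 43 bases before the start in all 6. Of the cluster's genes with a promoter in the RefSeq table, 8 of 17 that rose and 3 of 17 that fell held the AP-1 site, and 11 and 5 held the TATA box. Those Sprr2 promoters resemble each other and are not independent. Over the whole genome the AP-1 site was in 4.7% of the promoters of genes that rose, 4.51% of those of genes that fell and 4.58% of all 14728 promoters of genes tested. The TATA box was in 9.43%, 11% and 8.84%, the E-box CACGTG in 10.7%, 8.62% and 9.3%, and CCAAT in 36.9%, 34.4% and 37%. A p53 half-site was in 7.45%, 7.3% and 7.15%. The full p53 response element was in 0 promoters of genes that rose, 0 of genes that fell and 1 in all. It was searched as adjacent half-sites with no spacer and no mismatch, so these counts cannot show that the genes lack p53 sites. The match is a description of letters in a short window and says nothing of binding.

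Lipid genes of the barrier changed in both directions. Of 25 ceramide and barrier lipid genes 13 rose and 5 fell (median 0.57). Cers3, the synthase of ultra-long-chain ceramides, rose from 99.2 CPM (33.5 to 131) to 228 CPM (193 to 285) without overlap, and Sptlc1 of the first step of sphingolipid synthesis rose by 1.04. The ceramidase Acer1 fell from 91.7 CPM (56.1 to 114) to 29.8 CPM (17.5 to 58.6), and the sphingomyelinase Smpd3 from 189 CPM (91.1 to 268) to 56.2 CPM (43.4 to 75.5). Smpd3 separated the conditions and Acer1 did not. Of 19 sterol synthesis genes none rose and 3 fell, Fdps by 1.22, Mvd by 0.7 and Hmgcs1 by 0.63. The share that fell, 15.8%, was near the 17.4% of all genes. With RLE scaling and with DESeq2 none rose either, but voom called 4 up and 4 down. With the mean of hair shaft markers as a covariate 3 rose and 3 fell.

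Cytokines of the epithelium rose in 7 of 21 tested members (Il24, Il33, Il19, Lif, Tslp, Il1f9 and Vegfa) and none fell; the median was 1.34. Without the 3 libraries that stood apart 6 rose and 2 fell (median 0.69), with the hair shaft covariate 5 rose and 2 fell (0.71), and voom called 16 up and 1 down. Il33, an alarmin stored in keratinocyte nuclei, was at 8.74 CPM (0.712 to 88.8) without and 189 CPM (81.6 to 407) with UVB. Il19, a relative of Il24, had 6 counts in all 8 unirradiated libraries together and 452 in the irradiated ones. Irradiated libraries were more numerous and mostly larger (above), so these counts are not a fold change. The leukaemia inhibitory factor Lif rose from 0.638 CPM (0 to 2.86) to 5.89 CPM (3.49 to 10.1). Il33 overlapped between conditions, Lif and Il19 did not. The classical inflammatory cytokines Tnf, Il1b and Il6 did not pass, at 1.06, 1.72 and 1.72. Chemokines rose in 7 of 20 members (median 1.59), and without the 3 libraries 5 rose and 1 fell (0.8). Ccl20, which attracts CCR6-bearing cells, was at 1.64 CPM (0 to 3.23) and 11.3 CPM (3.3 to 20.4) without overlap, and Cxcl16 at 22.4 CPM (0.939 to 39.7) and 81.1 CPM (52.8 to 138), also without overlap. The neutrophil attractant Cxcl5 had 3 counts without and 398 counts with UVB, a ratio of CPM of 58.9 (exact 95% interval 20 to 287, counting error only). Cxcl1 rose by 3.1 ± 0.812 with overlap.

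Of 17 NF-kB genes 6 rose and none fell (median 0.77). The median was 0.11 without the 3 libraries that stood apart (5 rose, 1 fell), 0.24 with the hair shaft covariate and 0.37 in the 7SK-rich libraries (7 rose, 2 fell). Rela, the p65 subunit, was at 29.6 CPM (19 to 40.9) without and 115 CPM (87.3 to 138) with UVB, and the co-activator Bcl3 at 6.91 CPM (2.2 to 21.8) and 53.8 CPM (35.9 to 71.6). Neither overlapped. Nfkb1 and the inhibitor Nfkbia did not pass, at 0.39 and 0.34. Interferon-stimulated genes rose in 2 of 23 members, Ifitm3 (1.99) and Oasl1 (2), a share of 8.7% against 15.8% of all genes. The call of Oasl1 was lost without the 3 libraries that stood apart (1.75, adjusted p = 0.0684).

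Markers of infiltrating cells were examined beside these genes. Of 11 neutrophil markers 5 rose (S100a8, S100a9, Lcn2, Cxcr2 and Csf3r), of which keratinocytes also make the first 3. Their summed level was 62.8 to 9260 CPM without and 1070 to 9520 CPM with UVB in the Lars2-rich libraries, and 12.2 to 112 and 213 to 1160 CPM in the 7SK-rich ones. The 9260 CPM came from K14-OPN library 1 alone, and the other 4 unirradiated Lars2-rich libraries, at 62.8 to 264 CPM, lay below every irradiated one of their kind. The same library had 2250 CPM of macrophage markers, against at most 208 CPM in the other unirradiated libraries. The granule and surface markers Ly6g, Camp and Ngp did not pass, at -0.37, 0.14 and 0.46. Macrophage markers rose in 2 of 11 (Cd68 and Ly6c2) and fell in 1 (Arg1). Cd68 was at 4.98 CPM (2.38 to 21.4) and 32.5 CPM (20.6 to 82.5), a log2 fold change of 2.54 ± 0.33. In RNA of whole epidermis, fewer cells of a type and less RNA per cell cannot be told apart, and the part of these cells in the cytokine and chemokine results was not tested.

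Genes of prostaglandin and hyaluronan metabolism rose in 14 of 20 tested members and fell in 2, with a median of 1.61. Has3, a hyaluronan synthase of keratinocytes, was at 9.96 CPM (5.7 to 22.6) without and 97.8 CPM (63.8 to 183) with UVB. The hyaluronidase Hyal1 was at 8.56 CPM (5.95 to 12.2) and 43.6 CPM (35.3 to 45.9). The synthase and the degrading enzyme of 1 polymer thus both rose without overlap (log2 fold change 3.42 ± 0.28 and 2.19 ± 0.172). Prostaglandin E synthase (Ptges) rose from 46 CPM (4.48 to 70.8) to 214 CPM (169 to 245), without overlap, and the inducible cyclooxygenase Ptgs2 from 20.8 CPM (6.11 to 650) to 215 CPM (99.1 to 547), with overlap. The 2 that fell were the prostaglandin E receptors Ptger3 (-2.89) and Ptger4 (-0.78). Ptgs1 did not pass (-0.56).

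Among proteases, 8 of 23 matrix metalloproteinase and plasminogen genes rose and 2 fell (median 0.9). Serpinb2, the plasminogen activator inhibitor PAI-2, rose from 147 CPM (79.7 to 453) to 600 CPM (305 to 1410), with overlap. Mmp1b rose by 4.35 ± 0.812, and Adamts14 and Adam12 fell by 4.64 and 3.22. In the gasdermin, inflammasome and apoptosis list 8 of 19 rose and 3 fell (median 1.01). Gsdmc, a pore-forming protein of epithelia, was at 2.08 CPM (0 to 46.2) and 83.6 CPM (46.5 to 116), and its copies Gsdmc2, Gsdmc3 and Gsdmc4, which may share its reads, rose as well. The survival genes Bcl2 and Bcl2l1 fell by 1.59 and 0.55, and Gsdmd (1.04) did not pass.

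Antioxidant genes gave a mixed picture, with 5 of 21 up and 2 down (median 0.39). Nfe2l2, which encodes NRF2, rose from 23.3 CPM (7.12 to 124) to 120 CPM (87.4 to 223), and Gsta4, a glutathione transferase for lipid aldehydes, from 1.51 CPM (0.348 to 5.71) to 37.1 CPM (3.49 to 134). Both overlapped. The NRF2 targets Nqo1 and Prdx1 rose by 2.55 and 1.14, Txnrd1 and Hmox1 fell by 1.31 and 0.89, and Gclc (-0.32) and Gclm (0.2) did not pass. Of 23 genes of protein folding stress 10 rose and 3 fell. Dnajb9, a co-chaperone of the endoplasmic reticulum, rose from 22.5 CPM (7.01 to 60.5) to 150 CPM (91.2 to 270) without overlap and calreticulin (Calr) by 1.26, whereas Herpud1 fell from 66.1 CPM (56.2 to 96.1) to 34.5 CPM (26.9 to 44.2), again without overlap. Chac1 and Atf6 fell by 2.85 and 0.86.

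Ribosome biogenesis factors rose in 17 of 23 tested members and fell in none (median 0.84). The nucleolar proteins Nolc1, Gnl3 and Nop2 were at 16.9 CPM (10.2 to 36.1), 22.9 CPM (17.3 to 49.3) and 17.9 CPM (10.4 to 25.6) without UVB. After UVB they were at 63.6 CPM (34.4 to 81.1), 68.4 CPM (51.1 to 108) and 50.6 CPM (34.2 to 73.5). Gnl3 and Nop2 separated the conditions and Nolc1 did not. With the fibroblast covariate 7 members rose, and in the Lars2-rich and 7SK-rich libraries alone 9 and 22. Cell cycle genes rose in 14 of 31 and fell in 2 (median 0.71). Rrm2, the ribonucleotide reductase subunit of S phase, rose from 12.2 CPM (5.6 to 22.3) to 48 CPM (31.2 to 59.7), the replicative helicase subunit Mcm4 from 12.9 CPM (7.09 to 23.1) to 35.1 CPM (27.1 to 39.5) and cyclin D1 (Ccnd1) from 26.5 CPM (10.8 to 36.1) to 54.9 CPM (39.3 to 81.6). All 3 were without overlap. Mki67 and Top2a did not pass, at 0.12 and 0.44, and Cdc6 and E2f1 fell by 0.79 and 1.19.

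Of 19 circadian clock genes 7 fell, 2 rose and 10 did not pass, with a median of -0.6. Per3 was at 111 CPM (26.5 to 171) without and 18.8 CPM (6.97 to 27) with UVB, with a slight overlap. The PAR-domain factors Hlf, Tef and Dbp fell by 2.77, 1.46 and 2.22. Hlf went from 28.4 CPM (4.69 to 44.9) to 3.64 CPM (1.54 to 7.99). Arntl, Per1 and Nr1d1 did not pass, at -0.3, -0.16 and -0.17. The hour of the day at which skin was taken is not in the labels, so UVB and the time of sampling cannot be told apart for these genes. With the fibroblast covariate, and in the Lars2-rich libraries alone, 3 clock genes fell and none rose (medians 0 and -0.23).

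Genes of WNT and hair follicle signalling fell in 16 of 24 tested members and rose in 1 (median -1.77). Wnt3 was at 91.9 CPM (63.8 to 152) without and 18.9 CPM (11.5 to 32.5) with UVB, and the WNT inhibitor Apcdd1 at 53.2 CPM (32.8 to 71.3) and 4.6 CPM (1.32 to 8.81). Kremen1, a DKK receptor, fell from 82.5 CPM (41 to 203) to 28.6 CPM (17.7 to 56.9), and the secreted inhibitor Sfrp1 from 27.2 CPM (12.9 to 65.5) to 5.93 CPM (2.45 to 17.5). Wnt3 and Apcdd1 separated the conditions, and Kremen1 and Sfrp1 overlapped. Axin2, a common WNT target, fell by 2.06, and Wnt10a was the member that rose (1.13). Without the 3 libraries that stood apart 10 members fell (median -1.23), and with the hair shaft mean as a covariate 9 fell (median -1.3).

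Hair, dermal and pigment cell markers fell with UVB. All 21 hair shaft markers tested fell, with a median of -7.04, but 4 fell without the 3 libraries that stood apart (median -0.65) and 10 in the 7SK-rich libraries (median -1.55). Inner root sheath markers fell in 9 of 10, and in 2 without those libraries. Their summed levels were 323 to 166000 CPM without and 43.2 to 279 CPM with UVB for the hair shaft in Lars2-rich libraries, and 155 to 195 and 32.4 to 77.4 CPM in 7SK-rich ones. Dermal fibroblast markers fell in 9 of 14 (median -1.92). Col1a1 was at 1380 CPM (82.1 to 2310) and 50.5 CPM (4.83 to 185). The summed fibroblast level was 248 to 4180 CPM without and 51.6 to 701 CPM with UVB in the Lars2-rich libraries, and 3040 to 4630 and 163 to 439 CPM in the 7SK-rich ones, where the conditions did not overlap. Melanocyte markers fell in 6 of 8 (Dct, Tyrp1, Mitf, Kit, Pmel and Slc45a2), and in 2 of 7 without the 3 libraries, where 1 rose. How far a smaller share of dermal and follicular material in irradiated samples accounts for falls of other genes was not tested beyond the covariate fits, in which 2198 genes rose and 2422 fell with the fibroblast mean and 2903 and 2725 with the hair shaft mean. Of the 6267 genes called in the average effect, 3663 were also called with the fibroblast mean and 4451 with the hair shaft mean. Among the remaining marker lists, 4 of 12 sebaceous gland markers fell and 1 rose, 2 of 7 endothelial and pericyte markers and 1 of 5 adipocyte markers fell, 1 of 3 skeletal muscle markers and 2 of 8 T cell markers rose, 1 of 11 Langerhans cell and MHC class II markers fell, and 0 of 4 erythrocyte markers passed. Langerhans cell genes Cd207 and Cd74 were at -0.18 and 0.06. The median of their list depended on the libraries, at 0.27 in the Lars2-rich and -0.66 in the 7SK-rich ones. Its summed level was 266 to 663 CPM without and 348 to 597 CPM with UVB in the Lars2-rich libraries. In the 7SK-rich libraries it was 494 to 633 and 293 to 361 CPM, without overlap. With the hair shaft covariate 4 of its members fell (median -0.78), and with the fibroblast covariate none did (median 1.35).

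The effect was next read in separate sets of libraries. Within the 12 Lars2-rich libraries 3297 genes passed (17.4%), 1663 up (8.79%) and 1634 down (8.64%). Within the 6 7SK-rich libraries 7714 passed (40.8%), 3853 up (20.4%) and 3861 down (20.4%), on 2 residual degrees of freedom and with a lower biological coefficient of variation (0.245 against 0.67). Of the genes called in the Lars2-rich libraries 94.1% moved the same way in the 7SK-rich set, compared with 72.3% of all genes, and 2351 of them (71.3%) were called there with the same sign. Those 2351 are 30.5% of the genes called in the 7SK-rich libraries, and 14 genes were called in both sets with opposite signs. For the genes called in the Lars2-rich libraries the median size of the log2 fold change was 1.84 in those libraries and 1.21 in the others. Across all genes the correlation of the fold changes was 0.531, and 0.684 across the 11163 genes with a mean log2 CPM of at least 1; genes are not independent replicates. The test of a difference between kinds called 0 genes (0%) with edgeR, with 1887 at an unadjusted p below 0.05, and 221 with DESeq2 and 370 with voom, so the effect is not shown to be equal in both kinds. Fosl1 and Eda2r rose in both (6.85 and 4.35, 7.66 and 4.58 on the log2 scale, Lars2-rich first), as did Krt6a (4.58 and 6.8) and Epgn (4.65 and 5.85).

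**Figure D3:**
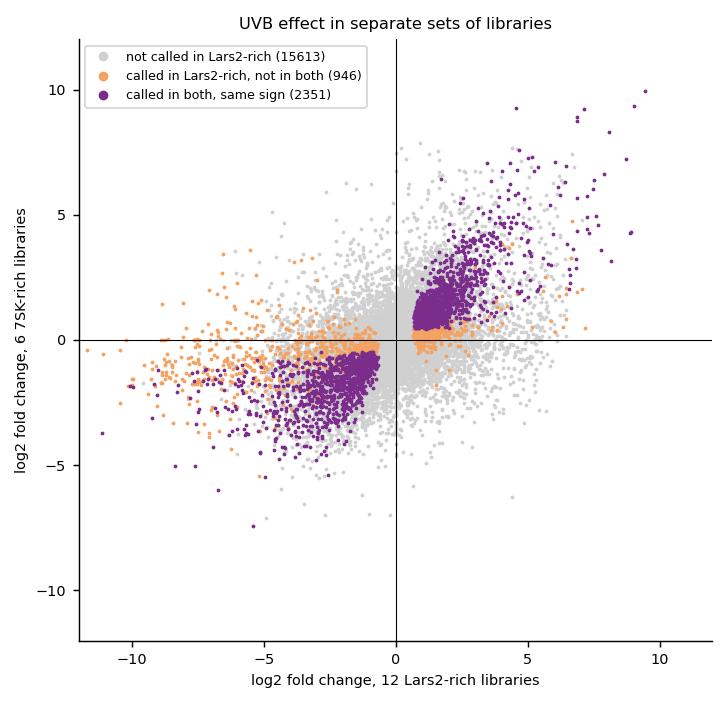
Log2 fold change of each of the 18910 genes with UVB in the 12 Lars2-rich libraries (horizontal axis) and in the 6 7SK-rich libraries (vertical axis), which share no library. Purple points are the 2351 genes called in both with the same sign and orange points the other genes called in the Lars2-rich libraries. Purple points fill the upper right and lower left quadrants, and a band of orange points with strong falls in the Lars2-rich libraries lies near 0 on the vertical axis.

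Between genotypes, no gene passed the test of a difference in the UVB effect (0 of 18910, 0%, edgeR with 2 degrees of freedom), while 732 had an unadjusted p below 0.05. DESeq2 called 2 genes, voom 0, and edgeR without the filter on low counts 127. In the same model the UVB effect passed for 705 genes in WT (3.73%), 2594 in OPN-null (13.7%) and 1458 in K14-OPN (7.71%), on unequal numbers of libraries (5, 7 and 6). A gene past the threshold in 1 genotype only is not shown to differ between them. Of the genes called in the average, 98.9% had the same sign in all 3 genotypes, against 60.3% of all genes; both values use the libraries that gave the call and are a description. Igsf8 had 1.77 in WT, 2.1 in OPN-null and 1.92 in K14-OPN, and the values of Ptp4a3 and St3gal2 are given above. Krt6a had 5.36 ± 1.07, 6.24 ± 0.914 and 3.82 ± 0.848 in the same order, and unirradiated K14-OPN libraries held both its highest and its lowest unirradiated value (1650 and 28.8 CPM). Nuak1 had -2.69, -4.6 and -5.01, and Skint7 -2.71, -6.01 and -4.3. None of these passed the test of the difference (adjusted p = 0.958 each), and values this far apart cannot be read as equal. Medians of the p53 list were 1.66 in WT, 1.77 in OPN-null and 1.49 in K14-OPN, and those of the wound list 2.89, 3.98 and 1.98.

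**Figure D4:**
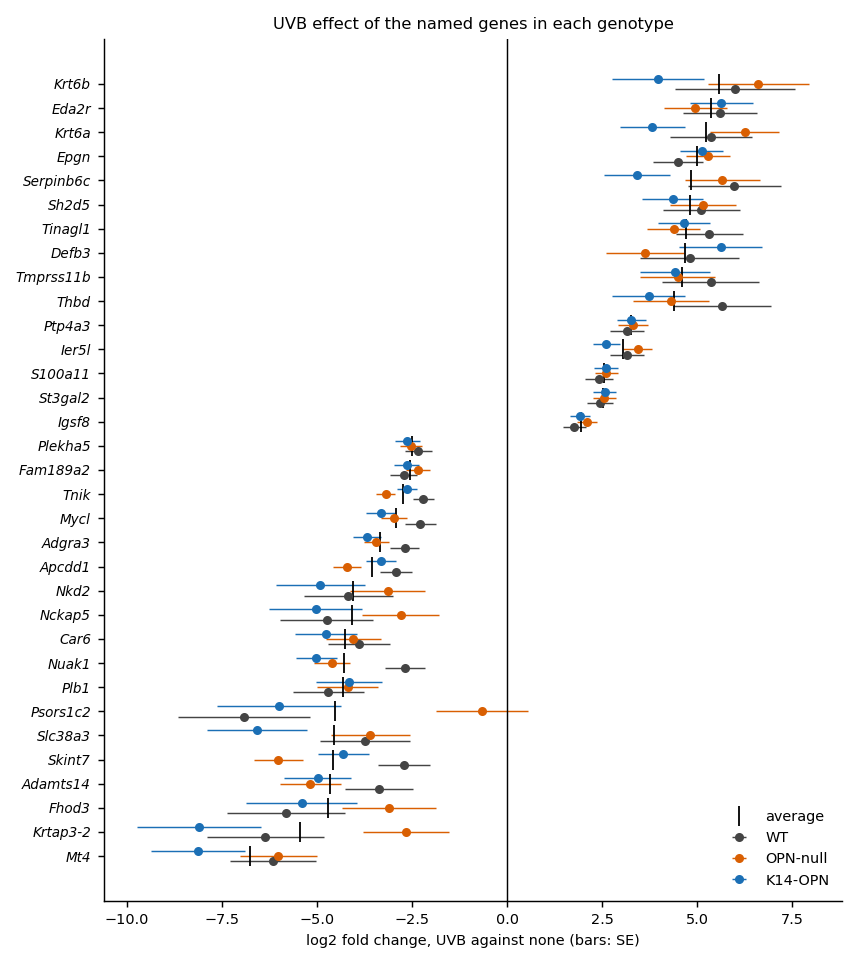
UVB effect of 33 named genes in WT, OPN-null and K14-OPN (horizontal axis, log2 fold change; error bars, SE), ordered by the average effect (black tick). Lgi2 and Il24 are left out because an unirradiated genotype had at most 3 counts. The genotypes lie on the same side of 0 for every gene, and the error bar of Psors1c2 in OPN-null (-0.66) reaches 0.

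Along the chromosomes, genes that rose or fell were grouped in further places. Windows of 1 Mb with at least 8 tested protein-coding genes numbered 611. On chromosome 11, from 99000001 to 100000000, 40 of 48 genes fell, among them many Krtap genes of hair shaft proteins and the root sheath keratins Krt25, Krt26 and Krt28, and on chromosome 16, from 88000001 to 89000000, all 15 fell, most of them Krtap genes. The type II keratin cluster on chromosome 15 (101000001 to 102000000) held 17 genes that fell, among them Krt71, Krt72, Krt73 and Krt2, and 7 that rose, among them Krt5, Krt6a and Krt6b. In mixed neighbourhoods, 22 of 52 genes rose on chromosome 11 from 69000001 to 70000000, where Trp53, Cd68 and Alox12b lie, and 21 of 45 on chromosome 19 from 5000001 to 6000000, where Rela and Fosl1 lie. The windows of falls on chromosomes 11, 16 and 15 hold many hair genes and were not recounted without the 3 libraries that stood apart. Without those libraries the median of the hair shaft list went from -7.04 to -0.65. That of the inner root sheath list went from -6.22 to -0.13. All these windows were picked as those with the most calls, so their counts are a description.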

How the data were processed

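Polyadenylated RNA of scraped mouse epidermis was sequenced in 18 libraries. The authors deposited 1 table of raw read counts per gene, with 56246 genes. Per the submitters' processing notes, HTSeq 0.11.3, STAR 2.7.5a, build GRCm38, Trim Galore 0.6.5 and bcl2fastq 2.18.0.12 were used, with no role or order stated. The strand setting and the handling of reads shared between genes are not given in any source at hand. The 5 summary lines that name no gene held 44.0 to 88.8% of reads per library and were left out.

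Genes were kept at a count of at least 10 in enough libraries and 15 in total (filterByExpr), scaled by TMM and tested with edgeR 4.0.16 (quasi-likelihood test, Benjamini-Hochberg adjustment over 18910 genes, threshold 0.05; R 4.3.3). UVB, genotype and library kind were additive; interaction models tested differences between genotypes and between kinds. CPM uses the TMM-adjusted library size. Overlap compares the lowest and highest library of each condition. The share of all genes tested without overlap over all libraries is not given here. Genes were named by small p or after their values were seen, so their separation is in part a result of that choice and only a description. Alternatives were RLE scaling, no filter, DESeq2 1.42.0, limma 3.58.1 (voom), covariates, library subsets and leaving out each library. Simulated counts for this comparison were run on 18910 genes, of which 200 with a mean log2 CPM of 1 or more were changed. Of these, 29.9% of genes changed 2-fold, 95.5% changed 4-fold and 100% changed 8-fold were called. Unchanged genes made up 6.25% of the calls. The rates do not cover genes of lower level, and far fewer genes were changed than were called in the data. No 2 libraries of a group had identical counts, and the 19 pairs differed by more than sampling noise (lowest chi-square per degree of freedom 41.2). Intervals cover counting error only.

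Genes named were Spp1, the 12 highest and 12 lowest fold changes and the 6 smallest p in each direction among called genes whose log2 fold change was 1 or more in size, whose mean log2 CPM was 1 or more and which had no overlap within either library kind, and up to 4 members of each list and 3 of each marker list by smallest p. Some genes the rule names are not reported here. Others were chosen after their values were seen. The members and lists were chosen with earlier results of these data known. Symbols are from GENCODE M21, promoters from RefSeq (11729 genes matched). List genes without a row in the table were not analysed here.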

Additional observations from a re-analysis of the deposited data

Results flagged for a closer look

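In groups of 4 libraries, a value was singled out when its gap to the nearest other library exceeded Dixon's 95% critical share of the group's range, which chance gives in about 1 in 20 groups. Irradiated OPN-null is the only group of that size. Of 144 genes 12 (8.33%) were singled out, 11 of them for the 7SK-rich library 16, which is the only library of its kind in the group, so library kind and library cannot be told apart. All values are log2 CPM.

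Library 16 was lowest for Areg (5.72, others 7.85 to 8.17), Ccl20 (1.8, others 3.76 to 4.09), Gata3 (5.93, others 8.66 to 9.07), Hyal1 (5.15, others 5.51 to 5.53), Krt6b (11.52, others 12.56 to 12.72), Mt2 (4.3, others 7.78 to 7.98), S100a11 (4.95, others 8.33 to 8.9) and Sprr1b (8.35, others 11.41 to 11.59). It was highest for Dsg1b (8.71, others 6.54 to 6.8), Dusp7 (8.58, others 6.83 to 7) and Tyrp1 (-2.34, others -2.75). Library 13 was highest for Krt35 (-0.9, others -2.75). The melanocyte gene Tyrp1 and the hair keratin Krt35 were near the floor that the prior count sets.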

How the results depend on the processing

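The average effect called 2634 to 3338 genes up and 2810 to 3312 down when 1 library was left out, and 1663 up and 1634 down in the 12 Lars2-rich libraries against 3853 and 3861 in the 6 7SK-rich ones; the cause was not tested. RLE scaling gave 2722 up and 3566 down (43.3% of calls up against 47.6%) and moved the median of all genes from -0.05 to -0.12. Without a library kind term 1997 rose and 2383 fell. The difference between genotypes called 0 genes in each fit that left out 1 library, 127 without the filter on low counts and 2 with DESeq2. The difference between library kinds called 547 without that filter, 221 with DESeq2, 370 with voom and 0 to 14 with 1 library left out (14 without unirradiated K14-OPN library 1). Within the Lars2-rich libraries DESeq2 called 5178 genes, and leaving out 1 library gave 2009 (without WT unirradiated library 10) to 4156. Within the 7SK-rich libraries it gave 5401 to 7598. Single genes changed direction in 2 cases, Krt73 (0.73 without the 3 libraries that stood apart) and Krt35 (0.14 with the hair shaft covariate); the cause was not tested.

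Numbers 1 and 2 are shared by K14-OPN libraries with and without UVB, whose residuals correlated at -0.226 and 0.021. With the numbers crossed, the correlations were -0.354 and -0.14. Each pair with the same number joins libraries of different kinds, and there are only 2 such pairs. Whether these libraries belong together therefore cannot be decided from the correlations. With the replicate block 3065 genes rose and 2871 fell, the differences between genotypes and kinds called 0 genes, and Spp1 had 2.1 (adjusted p = 0.0566, edgeR).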
